A study of Drosophila melanogaster and Drosophila persimilis and Drosophila pseudoobscura with 5 samples.

Results

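Voltage-gated ion channels set the firing of neurons, and the genes that encode them were followed here through Johnston's organ, by which flies hear and which lies in the second segment of the antenna, in adults of 5 Drosophila species. The set consists of 10 named genes, namely the hyperpolarization-activated channel gene Ih, the sodium channel gene para, the calcium channel gene cac and the potassium channel genes Sh, Shab, Shal, Shaw, eag, sei and slo. Of these, 4 (Ih, para, Shaw and eag) were rows of the authors' cross-species table of 8180 genes, and the other 6 were not among its rows under a current or older symbol. Those 6 were therefore followed only by their reads in D. melanogaster.

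Each species gave 1 library of total RNA, from adult flies raised at 25°C. Of these, D. pseudoobscura and its close relative D. persimilis form the obscura group, and the other 3, D. yakuba, D. simulans and D. melanogaster, the melanogaster group. No strain, genotype or treatment is given for any library, and neither sex nor the number of animals is stated in the labels. The authors' column names carry a number for each species, and the word mix for D. melanogaster only, with no meaning stated. With 1 library per species there is no replicate spread to set a difference against, and no test was run, so each statement of higher or lower holds for these libraries only. Where 5 signals follow each other without species names, the first is that of D. melanogaster, followed by D. simulans, then D. yakuba, then D. pseudoobscura and last D. persimilis.

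Voltage-gated channels open and close with the potential across the membrane. The sodium channel carries the upstroke of the action potential, potassium channels of the Sh, Shab, Shal and Shaw families repolarize the cell, and calcium channels trigger transmitter release at the synapse. Ih is the fly member of the HCN family, cation channels that open when the cell hyperpolarizes and that bind cyclic nucleotides. In Johnston's organ the sensory neurons are chordotonal neurons, which turn the movement of the antenna into receptor potentials through channels in their cilia, among them the TRPV subunits Nanchung (nan) and Inactive (iav).

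The reads counted on genes ranged from 7580214 in D. simulans to 22391819 in D. melanogaster. Markers of chordotonal neurons were sparse in the cross-species table, where 5 of 10 listed were rows. Their summed signal was 31.7, 25.9, 29.1, 16.2 and 8.96, and ato was listed at 0 in all 5 libraries. The members did not move together in D. simulans, where Rootletin, a gene of the ciliary rootlet, gave 24.5 of the sum against 15.3 in D. melanogaster, while nan stood at 0.0910 against 14.7. Markers of other tissues differed widely between libraries. The summed signal of 9 photoreceptor genes was 117, 7940, 331, 17.2 and 117, highest in D. simulans, with 7 of the 9 listed at 0 in D. pseudoobscura and 4 in D. persimilis. That of 6 muscle genes was 2249, 18675, 9365, 8302 and 43496, highest in D. persimilis. The sums were 2266, 938, 2172, 1069 and 789 for 7 glial genes, 29462, 27540, 38690, 104149 and 52454 for 8 genes of the olfactory segment, and 18974, 47885, 7160, 5523 and 3736 for 6 fat body genes. These sums follow their largest members. In D. simulans 3 of the 6 fat body genes were below D. melanogaster, while fit was at 24996 against 1174. Of the 7 glial genes 6 were below, while alrm was at 26.7 against 1.54. In whole tissue, fewer cells of a type and less RNA per cell cannot be told apart.

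In D. melanogaster, where reads can be counted on each gene, Ih had the most reads and the highest read density of the 9 channel genes with a matched identifier. Ih (FBgn0263397, 2R:14276130-14300095 in the BDGP6 annotation, plus strand) had 9096 reads, with a 95% exact Poisson interval of 8910 to 9285. Over its 12715 bases of exon this was 715 reads per kilobase, which exceeded 84.0% of the 14767 annotated genes with a count entry. The 9 genes together held 20062 reads, of which Ih took 45.3%. Poisson intervals here cover counting error only.

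The calcium-activated potassium channel gene slo (3R:24662491-24711595) came next by density, with 2734 reads (2632 to 2838) and 269 reads per kilobase. Sh (X:17924307-18063247), which encodes the A-type potassium channel Shaker, had 3997 reads (3874 to 4123) and 175 per kilobase. By union exon length the densities of slo and Sh were 2.66-fold and 4.08-fold below that of Ih. The order of these 2 genes depended on the length used, since per kilobase of the longest transcript Sh stood at 328 and slo at 309, or 3.11-fold and 3.31-fold below Ih, which stayed first at 1022.

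The delayed rectifier gene Shab (3L:2895017-2959579) had 1693 reads and 149 per kilobase (142 to 156). The ERG-family gene sei (2R:24047411-24053035) had 458 reads and 140 per kilobase (127 to 153). The A-type gene Shal (3L:19566851-19584568) had 558 reads and 121 per kilobase (111 to 132). By union exon length Shab and sei had overlapping intervals, as did sei and Shal, so that these neighbours were not separated at this depth. The distance of Shab depended on the length used. Per kilobase of the longest transcript Shab stood at 223, sei at 143 and Shal at 136. For sei, 478 exon bases are shared with genes annotated on the opposite strand, and the strand setting of the counting is not stated in the labels, so its reads may include theirs.

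The lowest densities belonged to cac, eag and Shaw. The presynaptic calcium channel gene cac (X:11931280-11985087) had 884 reads and 74.1 per kilobase (69.3 to 79.2). The ether-a-go-go potassium channel gene eag (X:14955477-15009989) had 479 reads and 45.04 per kilobase (41.1 to 49.3), and the Kv3-type gene Shaw (2L:3718185-3729145) had 163 reads and 32.6 per kilobase (27.8 to 38.0). The intervals of these 3 genes did not overlap. The median over the 10600 genes with at least 1 read was 172 reads per kilobase, so Ih, slo and Sh lay above it and the other 6 below. The interval of Sh (170 to 181) included this median. No count entry matched the current identifier of para, so para has no place in this order. Its reads, estimated from the signal as explained below, came to about 4482 over 16309 bases of exon. That is more than the 3997 counted for Sh, though the same estimate was too high for Ih, at 10077 against 9096.

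**Figure D1:**
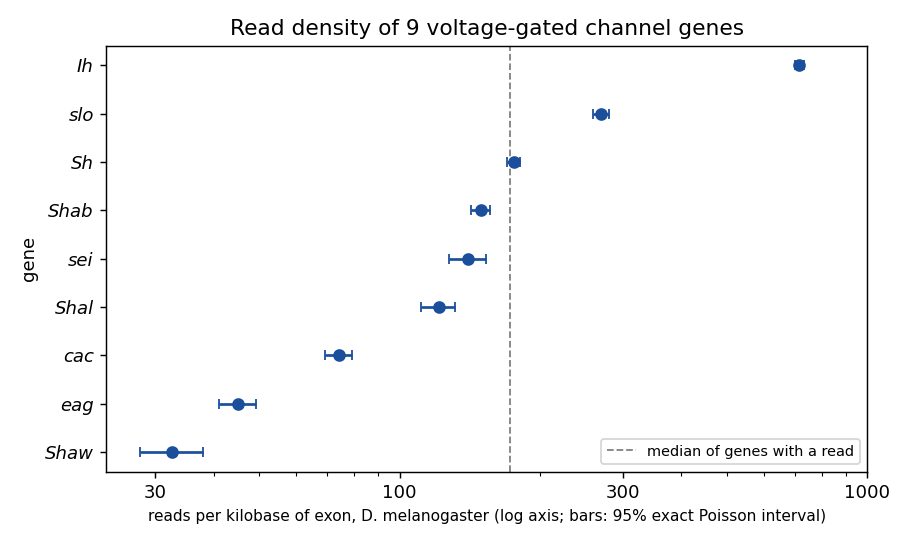
Reads per kilobase of exon (log axis) of the 9 voltage-gated channel genes counted in D. melanogaster, with 95% exact Poisson intervals as bars and the median of genes with a read as a dashed line. Ih stands at 715, slo at 269 and Sh at 175, and the other 6 genes lie below the median of 172.

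Across species, levels are given as the authors' signal, which was read as reads divided by gene length with each library brought to the same upper quartile. The labels do not describe it, and the division by length was checked in D. melanogaster only. Ih was high in 4 of the species and low in the fifth. Its signal was 51.9 in D. melanogaster, 49.6 in D. yakuba, 31.6 in D. persimilis, 30.2 in D. pseudoobscura and, at a distance, 6.02 in D. simulans. Neighbours at the top of this order were close, since D. melanogaster stood 1.05-fold above D. yakuba and D. persimilis 1.05-fold above D. pseudoobscura, and with no replicates it cannot be said whether these neighbours differ.

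The D. simulans level of Ih was 8.62-fold below D. melanogaster, 8.24-fold below D. yakuba, 5.26-fold below D. persimilis and 5.02-fold below D. pseudoobscura. Differences of at least 2-fold on the log2(signal + 1) scale were common in these pairs. Among the 5089 genes with a mean signal of at least 5, which are called compared genes below, 50.0% were that far apart between D. simulans and D. melanogaster. The share was 48.0% against D. yakuba, 53.9% against D. persimilis and 54.8% against D. pseudoobscura. A 2-fold difference is thus near the background in any of the 4 pairs, but those of Ih were larger than 2-fold. The share of compared genes with a smaller difference than Ih was 88.5% against D. melanogaster and 90.1% against D. yakuba. It was 77.3% against D. persimilis and 75.1% against D. pseudoobscura.

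In the other 6 pairs Ih was less than 2-fold apart. The log2 differences were -0.06 from D. melanogaster to D. yakuba, -0.76 to D. pseudoobscura and -0.69 to D. persimilis, -0.70 and -0.63 from D. yakuba to D. pseudoobscura and D. persimilis, and 0.07 from D. pseudoobscura to D. persimilis. In the same pairs 34.5%, 48.9%, 56.0%, 48.7%, 52.5% and 39.7% of compared genes were at least 2-fold apart. When the libraries were given equal totals instead, 3 of these pairs passed 2-fold, as given in the closing section.

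How far Ih set D. simulans apart from all 4 other libraries at once was examined after its values had been seen. D. simulans lay 2.15 below the lowest of the others on the log2(signal + 1) scale. A gap of at least 2-fold in this direction was found for 496 compared genes, 9.75%, and 97.0% of compared genes had a smaller gap than Ih. Over the 4 other libraries, by contrast, Ih spanned 0.76, and 8.49% of compared genes had a narrower range, whose median was 1.95. Over all 5 libraries its range of 2.91 was near the median of 2.39. Ih therefore combined an even level in 4 species with a single low library. The range over 4 species rose to 1.55, with 30.3% of genes narrower, when libraries were scaled to equal totals.

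**Figure D2:**
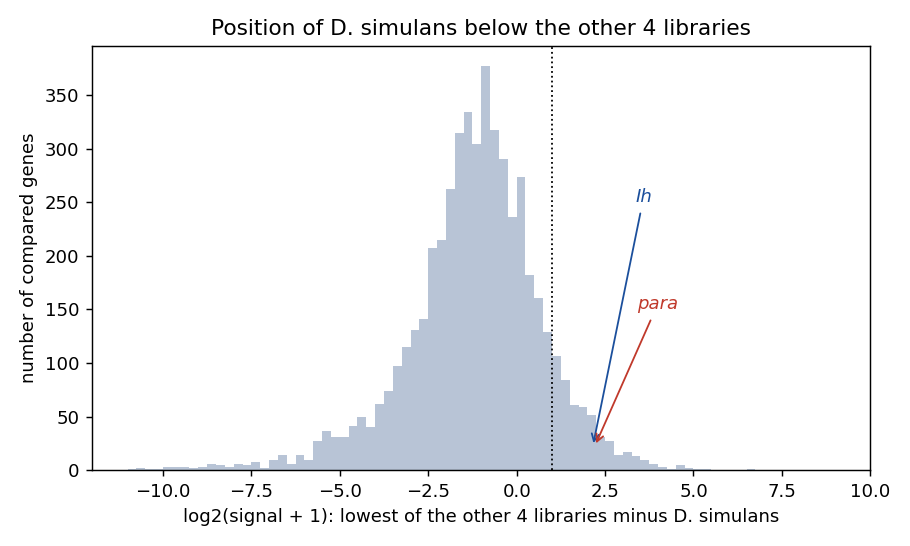
Number of compared genes by the distance, in log2(signal + 1), of D. simulans below the lowest of the other 4 libraries. Positive values mean that D. simulans was the lowest library, the dotted line marks a 2-fold gap, and Ih (2.15) and para (2.20) lie to its right, beyond most of the 5089 genes. The gap of para comes from a listed 0 in D. simulans, which can be a missing match between annotations.

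The reads behind the low value can only be estimated, because the row of Ih is not tied to an identifier of the other species' count tables. The value of 1 read in each library was taken from the lowest signals above 0 multiplied by D. melanogaster exon length. For D. melanogaster this gave 10077 reads against the 9096 counted. It gave about 442 reads for D. simulans (exact Poisson interval 402 to 485), and 3196 for D. persimilis, 4493 for D. pseudoobscura and 8391 for D. yakuba. Summed over the table, such estimates came to 66.5% of the reads counted in D. melanogaster, whose other reads lie outside the matched rows of the table, but to between 107% and 125% in these 4 libraries. They are therefore too high on average, for D. simulans by 1.79-fold if the table held the same share of reads as in D. melanogaster. The Poisson interval covers neither this nor any other error of the estimate.

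The low D. simulans level went with exon length over the whole table. The median log2 difference of D. simulans from D. melanogaster was 0.50 in the shortest of 4 equal classes of genes by exon length, 0.10 and -0.24 in the next classes and -0.76 in the longest, and -1.18 over the 54 compared genes with at least 10 kb of exon. Ih, with more exon than 99.6% of compared genes, differed by -2.91. D. simulans was lowest by at least 2-fold for 14.8% of those 54 genes. The summed signal of 5 markers of neurons was 175, 155, 294, 591 and 302. In D. simulans 111 of this sum came from the synaptic gene cpx and 30.1 from Syt1, which was at 23 in D. melanogaster. The other 4 of the 5 markers, cpx among them, were lower in D. simulans than in D. melanogaster. The neuronal RNA-binding gene elav was at 3.07 against 6.18, and the active zone gene brp was listed at 0 in D. simulans and D. yakuba. The part of gene length, of the match between annotations and of tissue makeup in the low Ih value was not tested.

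The sodium channel gene para (FBgn0285944, X:16455027-16533096, minus strand, 16309 bases of exon) was the other member above the filter. Its signal was 17.98 in D. melanogaster, 16.2 in D. pseudoobscura, 11.3 in D. yakuba and 3.61 in D. persimilis, and it was listed at 0 in D. simulans. A 0 outside D. melanogaster can be a missing match between annotations, and no fold is given against it. Taken as a low value, it placed D. simulans lowest by a 2-fold gap here too, as for Ih. Among the other 4 libraries D. persimilis was the low one, 4.98-fold below D. melanogaster and 3.13-fold below D. yakuba.

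The potassium channel genes Shaw and eag stayed below the filter, with mean signals of 4.43 and 1.196. Shaw was at 11.04 in D. persimilis, 7.97 in D. yakuba, 2.13 in D. melanogaster and 0.981 in D. pseudoobscura, and was listed at 0 in D. simulans. Its highest levels were thus 1 library of each species group. eag was at 2.95 in D. melanogaster and 2.34 in D. pseudoobscura, and at 0.167 in D. simulans, 0.0688 in D. yakuba and 0.453 in D. persimilis. By the same estimate the D. simulans and D. yakuba values of eag rested on about 10.3 and 9.74 reads, so their order was not detectable at this depth.

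Set side by side per length, Ih had the highest signal of the 4 genes in each of the 5 libraries. para was second in D. melanogaster, D. yakuba and D. pseudoobscura, while in D. persimilis Shaw exceeded it. D. simulans had the lowest value of Ih under the authors' scaling and the 3 other scalings tried. It was also lowest for para and Shaw, but their 0 there stays 0 under any scaling. For these genes the other scalings could therefore show nothing. Each of the 4 genes carries more exon than at least 91.8% of compared genes, with 5000 bases for Shaw and 10636 for eag.

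**Figure D3:**
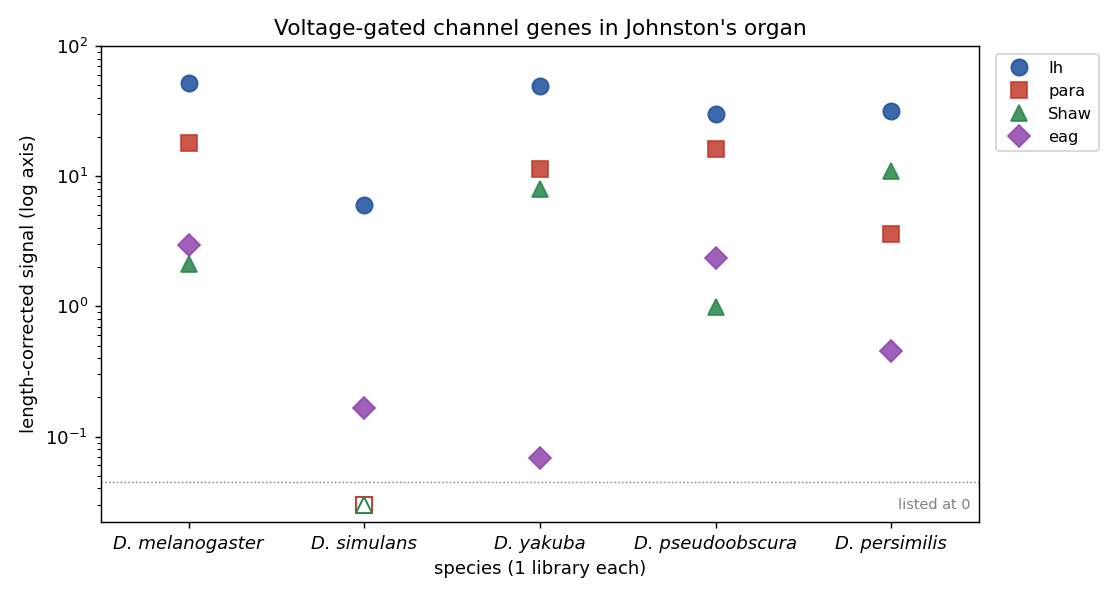
Length-corrected signal (log axis) of Ih, para, Shaw and eag in the 5 libraries, 1 per species, with open symbols under the dotted line for values listed at 0. Ih lies between 30.2 and 51.9 in 4 species and at 6.02 in D. simulans, where para and Shaw are listed at 0.

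Between the species groups none of the 4 genes was separated by a 2-fold gap, the rule by which every library of one group must lie 2-fold or more above every library of the other. By that rule 4.68% of compared genes were higher in the obscura group and 5.86% lower. The mean log2(signal + 1) of Ih was 4.996 in the obscura group and 4.73 in the melanogaster group, a difference of 0.26 that rested on the D. simulans value. Without D. simulans the difference was -0.70, and both obscura libraries then lay below D. melanogaster and D. yakuba, by at least 0.63. That distance is under the 2-fold gap.

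Genes whose profile over the 5 libraries was most like that of Ih were ranked by the root mean square difference of log2(signal + 1) values, each gene centred on its own mean. The 8 nearest of 5088 genes were CG5758 (0.116), Hpr1 (0.145), Letm1 (0.156), Cp190 (0.158), CG15279 (0.162), Irk2 (0.162), CG7987 (0.167) and GATAd (0.174), against a median distance of 1.37. Hpr1 is a subunit of the THO complex of mRNA export, Letm1 a mitochondrial inner membrane protein of cation exchange, Cp190 a chromatin insulator protein and GATAd a GATA-type transcription factor. Irk2, which encodes an inwardly rectifying potassium channel, had signals of 269, 27.1, 182, 132 and 131. Its level in D. melanogaster was 9.91-fold above that in D. simulans. All 8 genes were lowest in D. simulans, the library that dominates this ranking.

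Without D. simulans none of these 8 stayed among the nearest 8, and the gene nearest to Ih over the 4 remaining libraries was nan, at a distance of 0.0516 against a median of 0.825. The TRPV subunit gene nan, known for its part in the transduction of sound in chordotonal neurons, was at 14.7 and 12.98 in D. melanogaster and D. yakuba and at 7.80 and 7.78 in D. pseudoobscura and D. persimilis. The signal of Ih was thus 3.53, 3.82, 3.87 and 4.07 times that of nan in these 4 libraries. In D. simulans the 0.0910 of nan came to about 1.5 estimated reads, under the limit of 3 reads that a count of 0 allows, so no ratio is given there. Over all 5 libraries nan ranked 33. The others of the nearest 8 without D. simulans were CG13887 (0.0542), CG1792 (0.0577), Wbp2 (0.0599), Drp1, NijA, RfC4 and Snx16, whose distances reached 0.0710. The first place of nan was thus a near tie. The signal of Ih was 4.63, 4.38, 4.27 and 4.52 times that of CG1792 in the same 4 libraries, a steadier ratio than that to nan. A likeness over 4 or 5 libraries is a description and carries no test.

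**Figure D4:**
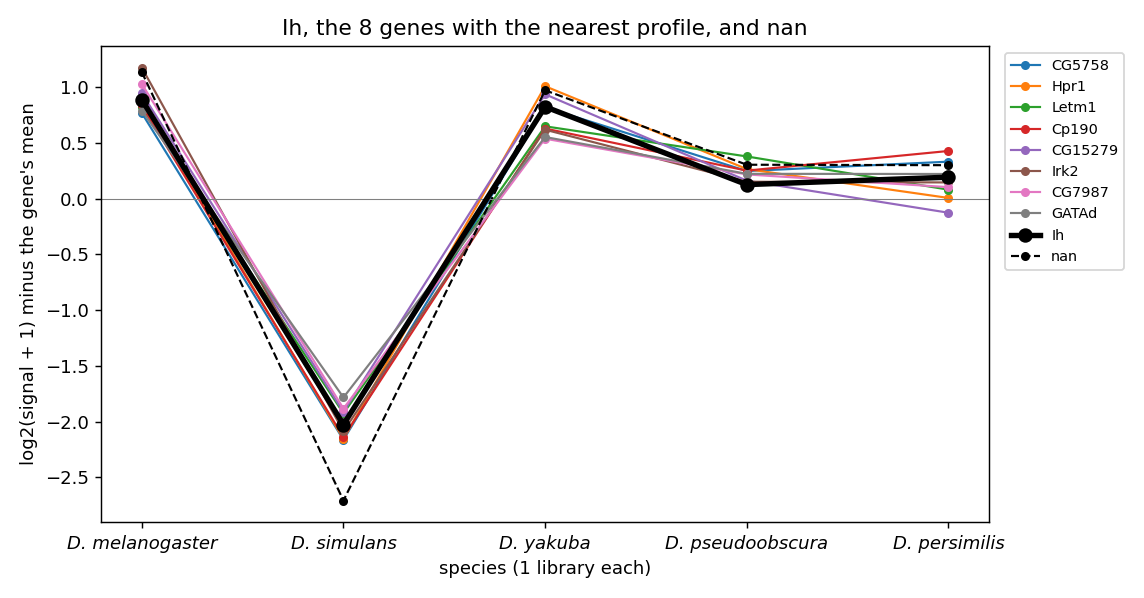
Centred log2(signal + 1) of Ih (thick black line), the 8 genes nearest to it over 5 libraries (coloured lines) and nan (dashed black line), by species with 1 library each. All profiles drop in D. simulans, where Ih lies at -2.03 and the value of nan rests on about 1.5 estimated reads, and lie close together in the other 4 species.

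Other channel-related genes gave the setting for these levels. The lists held 49 genes, of which 38 were rows of the table and 26 passed the filter. D. simulans was below D. melanogaster for 23 of these 26, with a median log2 difference of -0.96, against 52.0% and -0.08 over all compared genes. Under the other scalings the count was 22 to 24, beside 48.3% to 74.5% of all compared genes. The count of 24 came with equal totals, where that share was 74.5%. The median was -0.86 to -1.62, beside medians of 0.04 to -0.97 over all compared genes. D. simulans was the lowest library by a 2-fold gap for 5 of the 26, 19.2%, next to the 9.75% above. They were Teh1, Irk2, Axs, subdued and Atpalpha. Most of the 26 genes fall in the longest class by exon length, from 2903 bases. In that class the share over compared genes was 14.5% and the median log2 difference from D. melanogaster -0.76. The lists were not matched for length.

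Among auxiliary subunits and regulators 8 of 14 genes passed. tipE and the Teh genes encode accessory subunits of the sodium channel. tipE was at 33.9, 23.2, 36.4, 45.4 and 31.96, a spread of less than 2-fold, while para itself was listed at 0 in D. simulans. Teh2 (74.7, 19.0, 76.5, 47.6 and 33.4) and Teh3 (68.2, 23.4, 39.7, 44.4 and 34.99) were lowest in D. simulans by less than 2-fold. Teh1 was at 0.177 there, about 4.64 estimated reads, against 4.08 to 17.6 in the others, and Teh4, at 5.12 to 10.09 in the other 4, was listed at 0 in D. persimilis.

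For the remaining regulators above the filter D. simulans was not the lowest library. Slob, which encodes a protein that binds the Slo channel, was at 21.3 in D. melanogaster and 39.96, 59.7, 40.5 and 42.2 in the other species. qvr, which encodes a small membrane-linked regulator of the Shaker channel, was at 37.3, 26.8 and 47.97 in D. melanogaster, D. simulans and D. yakuba and at 12.6 and 14.02 in D. pseudoobscura and D. persimilis. The calcium channel alpha2-delta subunit gene stj was at 3.84, 5.01, 8.54, 10.1 and 1.72. Of 11 other voltage-gated and related channels only KCNQ, the M-type potassium channel gene, passed, with signals of 5.72, 3.32, 8.97, 9.71 and 12.9.

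Potassium channels of the leak and inward rectifier kinds held the genes that were higher in the obscura group. Of 7 such genes 5 passed, and 2 were called higher by the gap, the 4.68% background applying. Irk3, a further inward rectifier, was at 67.3 and 56.3 in the obscura libraries against 8.15 to 17.4 in the melanogaster group, and the leak channel gene Task7 was at 4.76 and 19.02 against 1.59, 0.435 and 0. Task7 passed the filter, at a mean of 5.16, only through its obscura values, so its call is no support for a difference between the groups. With libraries scaled to equal totals neither was called, and with scaling by trimmed means or by median of ratios sand joined them. The leak channel gene sand, known for its part in sleep, was at 15.7 and 12.1 in the obscura group, 5.79 in D. yakuba, 0.232 in D. melanogaster and 0 in D. simulans. Like Task7, sand passed the filter, at a mean of 6.77, only through its obscura values. Its call is likewise no support for a difference between the groups. Irk1 was at 9.14, 5.85, 10.7, 27.4 and 1.26.

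Of the chloride channel genes 6 of 7 passed and none was called between the species groups. The bestrophin genes Best1 (47.6, 10.8, 72.8, 6.71 and 4.90) and Best2 (69.6, 10.02, 52.9, 7.62 and 6.43) were high in D. melanogaster and D. yakuba and low in the other 3 libraries. Axs was at 0.0765 in D. simulans, about 1.14 estimated reads, against 1.68 to 23.4 elsewhere, and subdued, a gene of the anoctamin family, at 1.15 against 3.78 to 16.7. ClC-a was at 16.6, 10.9, 29.2, 8.52 and 1.93, and ClC-b at 24.8, 20.4, 7.25, 46.3 and 21.3.

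Of the pumps and transporters that maintain ion gradients 6 of 10 passed. The sodium pump subunit genes had the highest levels of all the lists, with Atpalpha at 952, 191, 811, 966 and 417 and nrv2 at 1459, 396, 1334, 1382 and 557. Both were lowest in D. simulans. The cotransporter gene Ncc69 was at 96.7, 16.4, 60.3, 29.4 and 12.7, the plasma membrane calcium pump gene PMCA at 61.6, 28.7, 64.4, 32.8 and 37.7, Nckx30C at 24.3, 14.8, 40.1, 18.1 and 15.4, and Calx at 10.3, 3.23, 5.98, 4.71 and 2.06. D. simulans was below D. melanogaster for all 6 of these genes, beside 52.0% of all compared genes. All 6 fall in the longest class by exon length, where the median log2 difference was -0.76. The ratio of D. simulans to D. melanogaster was 0.201 for Atpalpha against 0.116 for Ih.

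**Figure D5:**
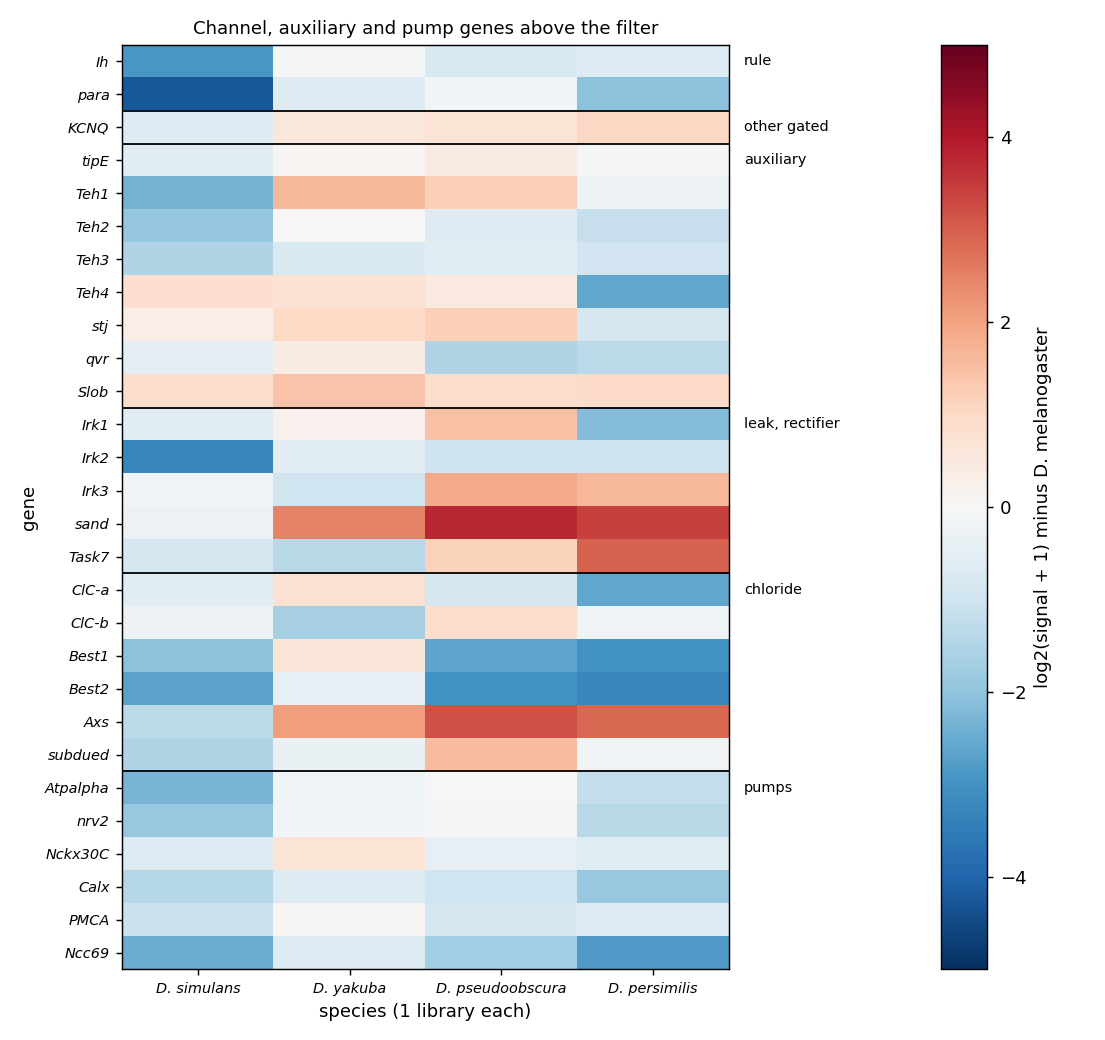
Difference of log2(signal + 1) from D. melanogaster (colour) in the other 4 species for the 2 members and the 26 other channel, auxiliary and pump genes above the filter, grouped by list. Ih is low in D. simulans, as are Irk2 (27.1 against 269) and Atpalpha (191 against 952), while Slob (21.3 in D. melanogaster) is at 39.96 or more in the other 4 species. The D. simulans value of para is a listed 0, which can be a missing match between annotations.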

How the data were processed

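RNA from Johnston's organ of 5 Drosophila species was sequenced as 1 library per species. Per the submitters' processing notes, TopHat2 2.0.3 and HTSeq were used, with no role given for either. The deposited count values are whole reads per gene of each species' own annotation, with no normalization. The cross-species table is the authors' own and holds a signal per gene, whose making the labels do not describe. Its 75th percentile was 34.3 in every library, and for 5842 genes with over 20 D. melanogaster reads the signal times exon length over count lay within 5% of its median for 76.8%, so it was read as reads per length at a common upper quartile.

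All signals were multiplied by 1.09, so that the library totals average 1000000, and compared as log2(signal + 1), which makes differences of low genes look smaller. A gene entered comparisons at a mean of 5 or more. Table symbols were matched to the BDGP6 annotation, a later release than the authors', for 8087 of 8180 genes. Read density used the union of exons. No test was run. The text names all 10 genes of the set, each gene of the channel lists above the filter, the 8 genes nearest to Ih, and marker genes on which a statement turns. Members and lists were chosen with earlier results of these data known. Alternatives were 3 other scalings, a pseudocount of 0.1, other filters, leaving out each library and transcript length. The gap call and the profile distance were tested on simulated data. Analyses used Python 3.11.15, pandas 2.3.3, numpy 2.4.6 and scipy 1.17.1.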

Additional observations from a re-analysis of the deposited data

How the results depend on the processing

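Of 176 recomputed values, 141 kept their direction and their side of the threshold or moved little. The 141 include values that could not move, such as Ih pair differences under other filters or without another library. The count is therefore no measure of how robust the results are. The Ih gap of D. simulans below the nearest library stayed past 2-fold under the alternatives run. Scaling to equal totals gave Ih levels of 75.4 in D. melanogaster, 59.8 in D. yakuba, 32.2 in D. pseudoobscura, 25.1 in D. persimilis and 4.68 in D. simulans, turned the species-group difference of Ih to -0.015 and that of D. persimilis from D. pseudoobscura to -0.34, took D. pseudoobscura and D. persimilis past 2-fold below D. melanogaster (-1.20 and -1.55) and D. persimilis below D. yakuba (-1.22), widened the 4-species range to 1.55 and gave 157 genes higher in the obscura group. Scaling by trimmed means (TMM) moved Ih to 47.3, 47.1 and 34.2 in D. melanogaster, D. yakuba and D. persimilis, and median of ratios to 47.3, 47.4 and 33.8, with D. yakuba then 0.0019 above D. melanogaster. A mean filter of 20 left 151 genes lower in the obscura group, 216 lowest in D. simulans and 3 of the 8 genes nearest to Ih, and a pseudocount of 0.1 left 5 of these 8. Leaving out 1 library gave 354 to 486 genes higher and 401 to 739 lower in the obscura group, 562 to 648 lowest in D. simulans, 0 to 7 of the 8 nearest genes, and a species-group difference of Ih from -0.70 (without D. simulans) to 0.76. The cause of these shifts was not tested. No paired analysis was possible because there is 1 library per species and no test. The differences between pairs do not depend on filters or on other libraries. Depth limits eag, at about 10.3 and 9.74 estimated reads in D. simulans and D. yakuba, and in D. simulans also Teh1, nan and Axs, at about 4.64, 1.5 and 1.14.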
